A study of Mus musculus with 8 samples.

Results

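Macrophages carry a set of surface receptors and secreted adaptors with which they take up modified lipoproteins, bacteria and dying cells, and the transcripts of 9 such genes were followed here: Msr1, Marco, Stab1, Mertk, Axl, Gas6, Timd4, Mfge8 and Trem2. They were chosen by gene symbol from the 55801 genes of the expression table, and each symbol named 1 row. All 9 had a mean level of at least 1 TPM (reads divided by gene length and scaled to the same total in each sample) and so belonged to the 12189 genes that were tested. The cells were peritoneal macrophages of male C57BL/6 mice of 6 to 8 weeks, collected after thioglycollate had been injected to draw them into the abdominal cavity. All groups share this elicitation, which brings in mostly monocyte-derived cells. There were 4 groups of 2 samples: vehicle (DMSO, named NC), LPS, C498 and C498+LPS. C498 is a compound that the study put forward as an inhibitor of JAK/STAT and NFκB signaling, and it was given at 15 µM for 0.5 h before LPS, the endotoxin of Gram-negative bacteria, was added at 100 ng/ml for another 4 h. Whether the 2 samples of a group came from separate mice or cultures is not given in the sources used here, so p-values measure only the spread between these samples, which may be technical. Means are given ± SD of the 2 samples of a group, and log2 changes are those of TPM + 1.

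Scavenger receptors bind polyanionic ligands such as oxidized lipoproteins and bacterial wall components and carry them into the cell. Apoptotic cells are recognized mainly by phosphatidylserine, a lipid that they expose on their surface, either directly by a receptor or through a soluble bridge. Mertk and Axl belong to the TAM family of receptor tyrosine kinases, and Gas6 bridges phosphatidylserine to them. In macrophages Mertk is known for the uptake of apoptotic cells at rest, and Axl for being induced by inflammatory stimuli.

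Before the 9 genes are described, the makeup of the samples has to be given, because it differed between the groups. The summed level of 10 macrophage markers was 20345 to 20819 TPM in NC, 18207 to 18708 TPM in LPS, 16019 to 16142 TPM in C498 and 12469 to 14255 TPM in C498+LPS. Most of that sum was Lyz2, the lysozyme of myeloid cells. The sum of 8 fibroblast markers was 153 to 197 TPM in NC and 186 to 213 TPM in LPS, against 643 to 762 TPM in C498 and 630.3 to 925 TPM in C498+LPS, with C498+LPS replicate 2 at the top. Of the 7 fibroblast markers tested, 6 passed as higher in C498 vs NC, and in C498+LPS vs LPS 5 passed as higher and 1 as lower. No fibroblast marker was listed at 0 in every sample. Mesothelial markers (8 genes) summed to 5.71 to 7.9 TPM without C498 and to 18.5 to 31.6 TPM with it, while their defining marker Msln stayed below the minimum for testing. B cell markers (6 genes) summed to 18 to 25.1 TPM without C498 and 41.7 to 120.2 TPM with it, dendritic cell markers (6 genes) to 0.89 to 2.15 and 3.2 to 4.96 TPM, and neutrophil markers (8 genes) to 113 to 166 and 70.9 to 98.2 TPM. Most of the neutrophil sum was S100a8 and Csf3r. Its members S100a9 and Ly6g were at 0 in all NC and LPS samples, so this sum cannot be read as an amount of neutrophils. Sums for endothelial cells (21.5 to 34.4 TPM), mast cells (8.81 to 22.9 TPM), T cells (3.1 to 7.25 TPM) and eosinophils (0.67 to 2.21 TPM) were low in all samples. In bulk RNA, fewer cells of a type and less RNA per cell cannot be told apart. The plot of marker sums shows these values by sample.

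**Figure D1:**
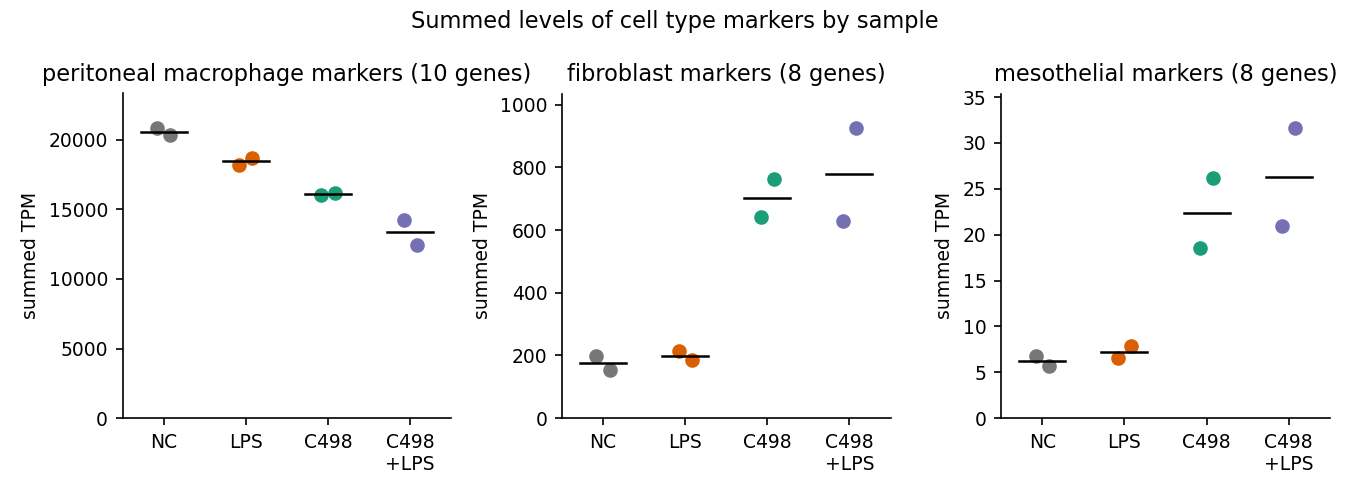
Summed TPM of macrophage, fibroblast and mesothelial marker genes in each sample (points, 2 per group) with the group mean (line), on linear axes from 0. Macrophage marker sums were lowest in C498+LPS, at 12469 and 14255 TPM, and fibroblast marker sums were at or above 630.3 TPM in all 4 samples with C498 and at or below 213 TPM in the 4 without.

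The 9 genes spanned a wide range of levels. Mfge8, with a mean of 734 TPM over the 8 samples, and Trem2, with 671 TPM, were above 98.1% and 97.9% of the tested genes, respectively. Msr1 followed at 181 TPM, then Axl at 52.8 TPM, Marco at 32.4 TPM, Stab1 at 30 TPM, Mertk at 17.2 TPM and Gas6 at 11.4 TPM. Timd4 was lowest at 1.77 TPM, above 8.82% of the tested genes. Trem2 and Mfge8 together made up 71.4% to 85.9% of the summed TPM of the 9 genes in a sample.

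**Figure D2:**
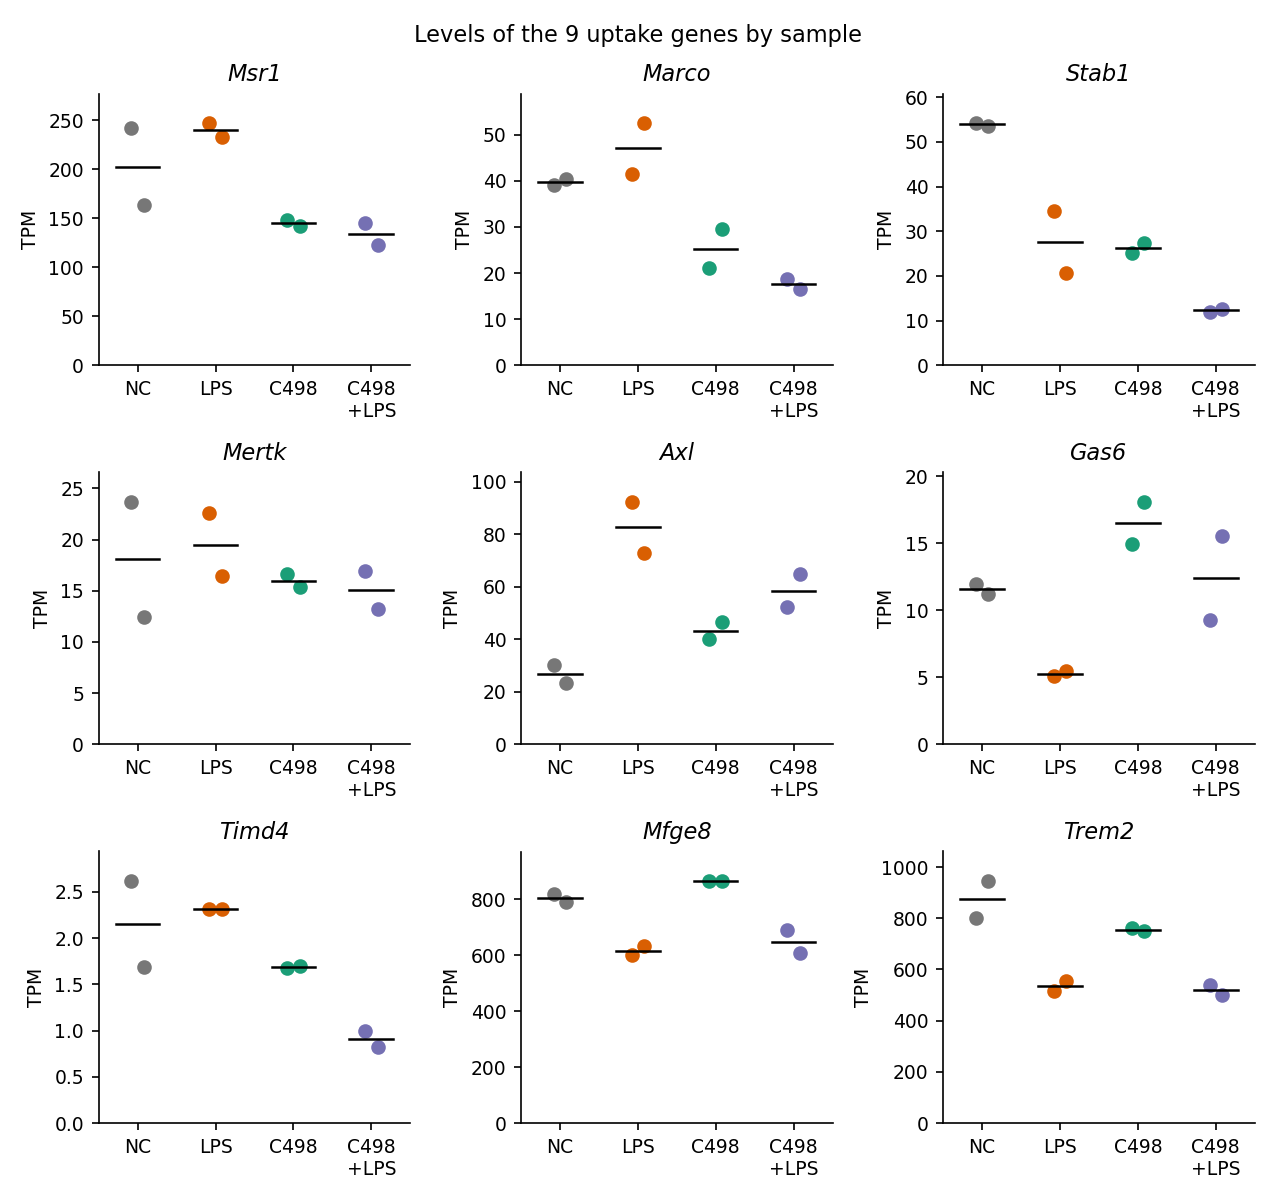
TPM level of each of the 9 genes in each sample (points, 2 per group) with the group mean (line), on linear axes from 0. Axl was highest in LPS, Gas6 lowest in LPS, and Stab1, Marco and Timd4 lowest in C498+LPS, where the Timd4 samples were at 1 and 0.82 TPM.

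The tests used limma on log2(TPM + 1) over all 12189 genes, with p adjusted by the Benjamini-Hochberg method. A gene passed at an adjusted p of at most 0.05, and a DEG also changed by at least 2-fold. LPS alone raised 1 of the 9 genes and lowered 4, where 9.84% of all tested genes passed as higher and 19.8% as lower (29.6% in all). After C498, LPS raised none and lowered 3 (4.51% and 11.7%, or 16.2% of all genes). C498 alone raised 1 and lowered 1 (9.29% and 6.19%, or 15.5%). With C498+LPS against LPS 1 gene was higher and 3 were lower (9.08% and 7.70%, or 16.8%). DEGs in the same order were 1 higher and 1 lower (5.55% and 6.68% of all genes), 0 higher and 1 lower (2.52% and 3.13%), 0 higher and 1 lower (5.64% and 1.36%), and 1 higher and 2 lower (5.39% and 2.18%). The samples of the compared groups did not overlap for 6, 6, 7 and 6 of the 9 genes, where this held for 61.4%, 66.2%, 57.7% and 62.8% of all tested genes. The middle change over all tested genes for LPS vs NC was -0.169 on the log2 scale, and that for C498+LPS vs C498 was -0.176, so that changes of the 9 genes in these comparisons stand against a general shift downwards. It was 0.014 in C498 vs NC and 0.007 in C498+LPS vs LPS, and became -0.108 and -0.0698 when samples were centred on their median gene. With that centring 2 of the 9 genes passed as higher and 2 as lower for LPS alone, where 26.5% of all genes passed. LPS after C498 then gave 1 higher and 1 lower (13.3%), C498 alone 1 higher and 2 lower (19.2%), and C498+LPS against LPS 1 higher and 5 lower (19.5%). Over the 9 genes, without centring, the medians were 0.09, -0.42, -0.21 and -0.49 in the same order.

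**Figure D3:**
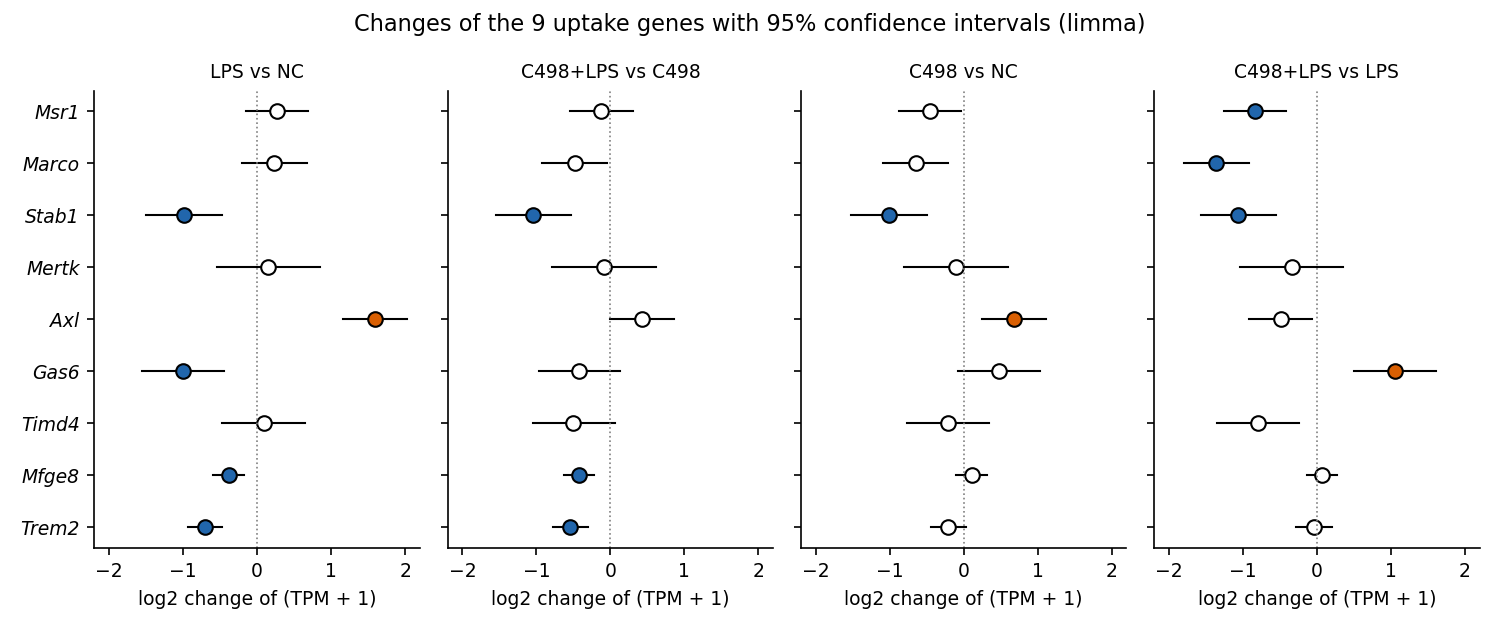
Change of each gene on the log2(TPM + 1) scale in 4 comparisons, with points for the estimate and lines for the 95% confidence interval from limma. Filled points passed at an adjusted p of at most 0.05 (orange higher, blue lower), and open points did not. Stab1 is the gene whose point is filled and lower in all 4 panels, at -0.99 to -1.06.

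The starts of 4 genes are shown because their levels went apart: Axl and Gas6, receptor and ligand, moved in opposite directions with LPS, and Marco and Stab1 were lower with C498+LPS than with LPS. Each sequence is the RefSeq promoter window of 300 bases (250 before and 50 after the start, GRCm38.p6), written 5′ to 3′ on the strand of the gene, with capitals for matches to GAGGAA, the core bound by the macrophage factor PU.1, on either strand. The windows are chr7:25788684-25788983 (minus strand) for Axl, chr8:13494486-13494785 (minus) for Gas6, chr1:120504975-120505274 (minus) for Marco and chr14:31168592-31168891 (minus) for Stab1.
Axl: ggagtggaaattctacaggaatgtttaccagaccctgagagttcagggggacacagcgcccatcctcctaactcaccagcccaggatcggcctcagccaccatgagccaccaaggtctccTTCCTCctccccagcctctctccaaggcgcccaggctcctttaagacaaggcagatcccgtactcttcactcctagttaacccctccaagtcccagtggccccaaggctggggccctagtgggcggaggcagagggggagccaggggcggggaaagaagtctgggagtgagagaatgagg
Gas6: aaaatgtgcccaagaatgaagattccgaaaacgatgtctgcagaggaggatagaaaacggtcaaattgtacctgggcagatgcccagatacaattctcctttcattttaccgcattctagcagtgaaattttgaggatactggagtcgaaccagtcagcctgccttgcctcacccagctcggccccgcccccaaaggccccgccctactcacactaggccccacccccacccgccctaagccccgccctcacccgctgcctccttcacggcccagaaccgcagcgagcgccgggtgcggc
Marco: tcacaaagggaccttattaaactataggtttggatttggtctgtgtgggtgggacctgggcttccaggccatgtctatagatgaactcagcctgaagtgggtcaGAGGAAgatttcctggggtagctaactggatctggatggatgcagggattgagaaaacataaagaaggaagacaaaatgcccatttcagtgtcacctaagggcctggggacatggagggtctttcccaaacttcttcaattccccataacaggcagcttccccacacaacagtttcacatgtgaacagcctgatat
Stab1: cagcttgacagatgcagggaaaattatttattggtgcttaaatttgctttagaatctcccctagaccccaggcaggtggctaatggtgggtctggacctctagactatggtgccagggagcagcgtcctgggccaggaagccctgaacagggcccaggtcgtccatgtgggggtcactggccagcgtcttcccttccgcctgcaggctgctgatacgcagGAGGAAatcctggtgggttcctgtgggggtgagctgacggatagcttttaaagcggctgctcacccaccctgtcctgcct

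The match begins 130 bases before the start in Axl, 146 in Marco and 30 in Stab1, and the Gas6 window has none. Of the 9 genes 8 had a window in the RefSeq table, Msr1 being the exception, and 5 of the 8 (62.5%) held GAGGAA, against 28.3% of 32817 windows of the same length. TGANTCA, the AP-1 site, was found in Trem2 (7.81% of all windows). Neither TTCNNNGAA, the form that STAT factors bind, nor the NFκB consensus was found in the 8 windows, and 8.29% and 4.5% of all windows held them. Both strands were searched, and no matches overlapped. Such matches describe the letters of these windows and say nothing of binding. Spi1, the gene of PU.1, had 449.6 ± 46.7 TPM in NC, had 457 ± 5.19 TPM in LPS, and fell to 262 ± 6.24 TPM in C498 (log2 change -0.77, limma adjusted p = 0.00398) and to 234 ± 18.4 TPM in C498+LPS (log2 change -0.97 against LPS, adjusted p = 0.00155). These falls stand beside median log2 changes of the macrophage markers of -0.44 in C498 vs NC and -0.64 in C498+LPS vs LPS. The part of cell makeup in them, and the part of Spi1 in the levels of the 9 genes, was not tested.

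Among the scavenger receptors, Stab1 (stabilin-1, an endocytic receptor that also binds phosphatidylserine) fell in each of the 4 comparisons. Its level was 54.3 and 53.6 TPM in the NC samples, 34.5 and 20.6 TPM in LPS, 25.2 and 27.5 TPM in C498, and 12 and 12.6 TPM in C498+LPS. Every NC sample was above all others and every C498+LPS sample below all others, while the LPS and C498 samples overlapped. In limma the log2 change was -0.99 (standard error 0.217, adjusted p = 0.0141) for LPS vs NC and -1.01 (adjusted p = 0.0238) for C498 vs NC. With the other agent present the changes were alike in size, at -1.04 for C498+LPS vs C498 (adjusted p = 0.021) and -1.06 for C498+LPS vs LPS (adjusted p = 0.0177). The interaction of C498 and LPS, which measures how far the effects depart from adding up on the log scale, was -0.05 with a 95% interval of -0.77 to 0.67. The LPS replicates differed from each other, and the change in LPS vs NC was -0.63 without LPS replicate 2 and -1.35 without LPS replicate 1. Without NC replicate 1 its adjusted p was 0.0514. The call in C498+LPS vs C498 was lost without any 1 of the 4 samples compared (adjusted p 0.105 to 0.141), that in C498+LPS vs LPS without either C498+LPS replicate or LPS replicate 1 (0.0544 to 0.104), and that in C498 vs NC without any sample but the LPS ones (0.0527 to 0.15), with changes of -0.7 to -1.1 throughout. With no filter the last 3 calls were lost (0.0519 to 0.0628), and in a fit of the compared groups alone those in LPS vs NC (0.0844) and C498+LPS vs LPS (0.0748).

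Marco, a collagenous scavenger receptor for bacteria and particles, fell in C498+LPS vs LPS. It was at 39.1 and 40.4 TPM in NC and at 41.6 and 52.7 TPM in LPS, against 21 and 29.6 TPM in C498 and 18.8 and 16.5 TPM in C498+LPS. All 4 samples with C498 were below all 4 without. In C498+LPS vs LPS the mean was 37.4% of that in LPS, or -1.36 on the log2 scale (standard error 0.188, adjusted p = 0.00405 in limma), and this call held under each of 16 other settings, the removal of each sample included. In C498 vs NC the change was -0.65, and it did not pass (limma adjusted p = 0.0586). With the replicate number added to the fit it did (adjusted p = 0.0396). LPS vs NC gave 0.23 with an interval of -0.21 to 0.67.

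Msr1, the class A scavenger receptor that takes up modified lipoproteins, fell in the same comparison. It was at 242 and 164 TPM in NC, 248 and 233 TPM in LPS, 149 and 142 TPM in C498, and 146 and 122 TPM in C498+LPS. The C498 and C498+LPS samples overlapped, and they were below the 4 other samples. Msr1 fell in C498+LPS vs LPS by 0.84 on the log2 scale (standard error 0.179, limma adjusted p = 0.02), which is less than 2-fold. The call was lost without any 1 of the 6 samples of LPS, C498 and C498+LPS, with changes of -0.72 to -0.97 and adjusted p between 0.053 and 0.143, and with no filter (0.06). The NC replicates lay far apart: in LPS vs NC the change was 0.27 (limma adjusted p = 0.3), -0.01 without NC replicate 2 and 0.55 without NC replicate 1, where it passed (adjusted p = 0.023). With centring it was 0.44 and passed (adjusted p = 0.0359). In C498 vs NC the change was -0.45 (limma adjusted p = 0.134), -0.73 without NC replicate 2 and -0.17 without NC replicate 1. With centring it was -0.57 and passed (adjusted p = 0.0213).

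The macrophage markers moved with these receptors. Their summed level in C498+LPS was 0.724 of that in LPS, and the median log2 change of the 9 tested markers was -0.64, with 5 passing as lower and 1 as higher. Ly6c2, a monocyte gene, was at -2.59, and the 8 other tested markers lay between -0.92 (Adgre1) and 0.47 (Cd14), with Csf1r at -0.91, Lyz2 at -0.64, Cd68 at -0.11 and Mrc1 at 0.26. The change of Msr1 (-0.84) lay among these 8, and those of Marco (-1.36) and Stab1 (-1.06) between them and Ly6c2. In C498 vs NC the median of the markers was -0.44, with 3 passing as lower and 1 as higher. The part of cell makeup in the falls of these receptors, and of other genes lower with C498 named in the text, was not tested.

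Of the TAM receptors, Axl rose with LPS and with C498 alone, and Mertk had no change that passed. Axl was at 30.1 and 23.5 TPM in NC and rose to 92.4 and 72.9 TPM in LPS, 3.09 times the mean of NC (log2 change 1.59, standard error 0.184, limma adjusted p = 0.00107), a call that held under each of 16 other settings. In C498 it was at 40 and 46.4 TPM, a rise of 0.68 (limma adjusted p = 0.0487), and in C498+LPS at 52.1 and 64.9 TPM. The groups did not overlap and stood in the order NC, C498, C498+LPS, LPS. The neighbours in that order differed past the threshold only for C498 against NC, and that call was lost without any 1 of 7 samples, NC replicate 1 being the exception (changes of 0.5 to 0.78, adjusted p 0.0686 to 0.232), as well as with no filter (0.107), without a variance trend (0.0756) and in a fit of these groups alone (0.116). C498+LPS vs C498 gave 0.43 (limma adjusted p = 0.161) and C498+LPS vs LPS -0.49 (adjusted p = 0.119). With each sample centred on its median gene both passed, at 0.64 (adjusted p = 0.0376) and -0.57 (adjusted p = 0.0435).

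Mertk was at 23.7 and 12.4 TPM in NC, 22.6 and 16.4 TPM in LPS, 16.6 and 15.3 TPM in C498, and 16.9 and 13.2 TPM in C498+LPS, with all 4 groups overlapping. The 95% interval of its log2 change in LPS vs NC was -0.54 to 0.85 and in C498+LPS vs LPS -1.04 to 0.35, so that these samples leave changes in either direction possible. The ratio of Axl to Mertk TPM was 1.27 and 1.89 in NC, 4.09 and 4.45 in LPS, 2.41 and 3.03 in C498, and 3.08 and 4.91 in C498+LPS. Every sample that had received LPS or C498 was above both NC samples. The third TAM receptor, Tyro3, was below the minimum level for testing.

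Gas6, the ligand of these receptors, went the other way with LPS. It was at 11.9 and 11.2 TPM in NC and fell to 5.06 and 5.49 TPM in LPS (log2 change -1, standard error 0.235, limma adjusted p = 0.0178). It was at 15 and 18.1 TPM in C498 and at 9.28 and 15.5 TPM in C498+LPS, and rose in C498+LPS vs LPS by 1.06 (limma adjusted p = 0.0236), to 2.35 times the mean of LPS. The LPS samples were below all others, and C498+LPS overlapped both NC and C498. The ratio of Gas6 to Axl TPM was 0.397 and 0.476 in NC, 0.0548 and 0.0753 in LPS, 0.374 and 0.39 in C498, and 0.178 and 0.239 in C498+LPS. In LPS vs NC the call was lost without LPS replicate 1 (adjusted p = 0.104), LPS replicate 2 (0.0802) or NC replicate 1 (0.0621), with quantile normalization (log2 change -0.78, adjusted p = 0.0592) and with no filter (0.0508). In C498+LPS vs LPS it was lost without C498+LPS replicate 2 (log2 change 0.71, adjusted p = 0.109), either LPS replicate (0.113 and 0.136) or either C498 replicate (0.0559 and 0.0561), with no filter (0.0631) and in a fit of these groups alone (0.0791).

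Fibroblasts are known to express Gas6 and Axl, and fibroblast markers were at 3.9 times the LPS level in C498+LPS and at 4.01 times the NC level in C498. C498+LPS replicate 2, with the highest fibroblast sum, also had more Gas6 and Axl than replicate 1. The part of fibroblast RNA in the higher Gas6 of C498+LPS, and in the higher Axl of C498, was not tested. In LPS vs NC the fibroblast marker sums of the groups overlapped, and their ratio was 1.14, while Gas6 fell and Axl rose. Of the 7 tested fibroblast markers 1 passed there, Pdgfrb, which rose from 0.525 ± 0.0778 to 8.83 ± 1.13 TPM (limma adjusted p = 0.000184). The part of these cells in the LPS changes was not tested either.

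Receptors and adaptors for phosphatidylserine and lipids formed the third group. Mfge8 is a secreted bridge from phosphatidylserine to integrins with the alpha v chain. It was at 818 and 792 TPM in NC and 864 and 867 TPM in C498, and at 600.1 and 634 TPM in LPS and 689 and 608 TPM in C498+LPS. All 4 samples with LPS were below all 4 without. Mfge8 fell by 0.38 on the log2 scale in LPS vs NC (standard error 0.0864, limma adjusted p = 0.0154) and by 0.42 in C498+LPS vs C498 (adjusted p = 0.02). Both changes were under 2-fold. With each sample centred on its median gene they were -0.21 (adjusted p = 0.296) and -0.2 (adjusted p = 0.381). The first was also lost without either LPS replicate (0.0604 and 0.103), and the second without C498+LPS replicate 2 or either C498 replicate (0.0939 to 0.124). Without a variance trend neither passed (0.0567 and 0.0673), and in a fit of the compared groups alone the first did not (0.056). For C498 vs NC the interval was -0.1 to 0.31 and for C498+LPS vs LPS -0.13 to 0.27.

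Trem2, a receptor for lipids and apoptotic cells that signals through the adaptor Tyrobp, was also lower in the groups with LPS. It was at 803 and 947 TPM in NC, 763 and 749 TPM in C498, 514 and 555 TPM in LPS, and 540 and 501 TPM in C498+LPS. The samples with LPS were again below all those without. Trem2 fell by 0.71 in LPS vs NC (standard error 0.101, limma adjusted p = 0.00261) and by 0.54 in C498+LPS vs C498 (adjusted p = 0.0147). Centring took the changes to -0.54 (adjusted p = 0.0759) and -0.32 (adjusted p = 0.307). The second call was also lost without any 1 of the 4 samples compared (adjusted p 0.0535 to 0.106). In C498+LPS vs LPS the interval of the change was -0.28 to 0.2. In C498 vs NC the change was -0.21 (limma adjusted p = 0.211), -0.32 without NC replicate 1 and -0.09 without NC replicate 2. Tyrobp itself was at 2235 ± 425 TPM in NC and fell to 1579.5 ± 163 TPM in LPS (log2 change -0.49, limma adjusted p = 0.0374).

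Timd4, a phosphatidylserine receptor of resident macrophages, was near the lower limit of what was tested. It was at 2.62 and 1.69 TPM in NC, 2.31 TPM in both LPS samples, 1.68 and 1.7 TPM in C498, and 1 and 0.82 TPM in C498+LPS. The C498+LPS samples were below the 6 others. The log2 change in C498+LPS vs LPS was -0.79 (standard error 0.237) and did not pass (limma adjusted p = 0.0621, range 0.0116 to 0.193 over the other settings). It passed with centring (0.023), quantile normalization (-1.07, 0.0116), no variance trend (0.0252) and a fit of these groups alone (0.0391), and without NC replicate 1 (0.0234) or NC replicate 2 (0.0238). Adding 1 TPM before the logarithm draws changes at such levels towards 0, and with 0.1 TPM added instead the change was -1.26 (adjusted p = 0.0545). The summed level of 10 markers of resident peritoneal macrophages was 39 to 50.4 TPM in the 6 other samples and 27.9 to 29.9 TPM in C498+LPS, and its part in the level of Timd4 was not tested. Of the 6 tested, 1 passed as higher and 2 as lower in C498+LPS vs LPS. Alox15 fell by 1.86 (limma adjusted p = 0.00349) and Prg4 by 1.01 (adjusted p = 0.0305). The one that rose was Gata6, the factor that defines resident peritoneal macrophages (log2 change 1.22, limma adjusted p = 0.0271), which was at 3.15 ± 0.502 TPM in NC, 1.89 ± 0.106 TPM in LPS, 6.65 ± 1.29 TPM in C498 and 5.95 ± 2.49 TPM in C498+LPS. Its rise stands beside mesothelial and fibroblast marker sums at 3.63 and 3.9 times those of LPS, and the part of these cells was not tested.

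The response to LPS can be read without C498 and with it from separate samples, NC and LPS on one side and C498 and C498+LPS on the other. Stab1, Mfge8 and Trem2 fell in both. Gas6 fell and Axl rose without C498, and with C498 their changes of -0.42 (95% interval -0.97 to 0.13) and 0.43 (-0.01 to 0.86) did not pass. Whether the 2 responses differ is asked by the interaction, which none of the 9 genes passed in limma, and which 0.492% of all tested genes did. At an unadjusted p under 0.05 there were 2 of the 9, Axl and Marco, against 11.1% of all tested genes. The interaction was -1.17 for Axl (standard error 0.26, 95% interval -1.78 to -0.56, limma adjusted p = 0.149, range 0.082 to 0.511 over the other settings). For Marco it was -0.71 (interval -1.34 to -0.09, limma adjusted p = 0.395), and for Gas6 0.58 (interval -0.2 to 1.36).

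**Figure D4:**
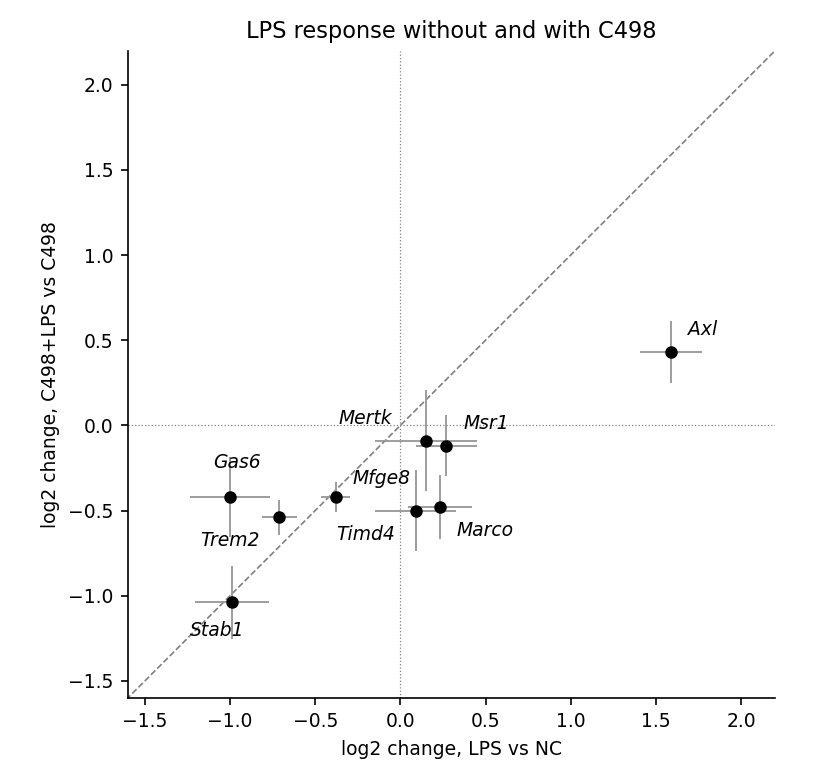
Log2 change of (TPM + 1) for each of the 9 genes with LPS alone (LPS vs NC, horizontal) and with LPS after C498 (C498+LPS vs C498, vertical), with bars of 1 standard error from limma and a dashed line of equal change. Axl lies farthest below the line, at 1.59 and 0.43, and Stab1 lies close to it, at -0.99 and -1.04.

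In GRCm38 with the GENCODE M21 annotation, Axl (ENSMUSG00000002602) lies on chromosome 7 from 25757273 to 25788705 and Mfge8 (ENSMUSG00000030605) on the same chromosome from 79133768 to 79149060. Gas6 (ENSMUSG00000031451) lies on chromosome 8 from 13465374 to 13494490 and Msr1 (ENSMUSG00000025044) on that chromosome from 39581685 to 39642673. Marco (ENSMUSG00000026390) is on chromosome 1 from 120474538 to 120505024, Mertk (ENSMUSG00000014361) on chromosome 2 from 128698956 to 128802894, and Timd4 (ENSMUSG00000055546) on chromosome 11 from 46810800 to 46844332. Stab1 (ENSMUSG00000042286) is on chromosome 14 from 31139013 to 31168641 and Trem2 (ENSMUSG00000023992) on chromosome 17 from 48346401 to 48354147. Stab1 overlaps Nt5dc2 on the opposite strand by 112 bases, and whether strand was used in counting is not given. Nt5dc2 was at 30.6 ± 4.19 TPM in NC, 14 ± 1.89 TPM in LPS, 35.2 ± 3.01 TPM in C498 and 22.8 ± 4.02 TPM in C498+LPS, and its part in the Stab1 values was not tested.

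The protein domains listed in the deposited annotation tie some of these genes together. Msr1 and Marco both list collagen and SRCR domains, and both fell in C498+LPS vs LPS. Axl and Mertk both list immunoglobulin, fibronectin type III and kinase domains, and of these Axl alone had a change that passed. The difference between the genes was not tested. Mfge8, Gas6 and Stab1 list EGF-like domains, and Trem2 and Timd4 a V-set immunoglobulin domain.

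Other scavenger receptors were drawn from a list of 18 genes, 13 of which were tested. This list and those below were chosen with earlier results of these data known, so their shares beside those of all genes only describe them. In LPS vs NC 3 rose and 3 fell (46.2% passed, against 29.6% of all tested genes). C498 alone raised 1 and lowered 1, a share near that of all genes (15.4% against 15.5%), and with C498+LPS against LPS 3 rose and 3 fell (46.2% against 16.8%). Olr1, the lectin-like receptor of oxidized lipoprotein, rose with LPS, to 16.1 ± 1.72 TPM against 3.36 ± 1.87 TPM in NC (log2 change 2.04, limma adjusted p = 0.0026), and Lrp1, a large endocytic receptor, fell by 0.9 (adjusted p = 0.00625). Scarf1, which binds acetylated lipoprotein and apoptotic cells, was at 43.8 ± 0.361 TPM in LPS and fell to 15.8 ± 1.32 TPM in C498+LPS (log2 change -1.41, limma adjusted p = 0.000985). It also fell in C498 vs NC, by 0.56 (adjusted p = 0.0267). At low levels, Scara3 rose in C498 vs NC by 0.98 (limma adjusted p = 0.0345) and Scarf2 in C498+LPS vs LPS by 1.27 (adjusted p = 0.0208), while in C498 vs NC Scarf2 did not pass (0.71, adjusted p = 0.124). These rises stand beside fibroblast marker sums 4.01 and 3.9 times higher, and the part of these cells was not tested.

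Of 20 other receptors and bridging molecules for apoptotic cells, 17 were tested, and in LPS vs NC 3 rose and 10 fell (76.5% passed, against 29.6% of all genes). Their median log2 change was -0.6. The lipid receptors Cd300lb and Cd300a fell by 3.49 and 2.52 (limma adjusted p = 6.64e-06 and 1.79e-05), Cd300lb from 73.2 ± 7.47 to 5.61 ± 0.481 TPM. C498 alone raised 2 and lowered 5 (41.2% against 15.5%). C1qa, a chain of the complement component that tags dying cells, fell by 0.88 in C498 vs NC (limma adjusted p = 0.0111) and by as much in C498+LPS vs LPS (adjusted p = 0.00925). Thbs1, thrombospondin, which bridges apoptotic cells to Cd36 and is also made by fibroblasts, was at 39.6 ± 23.1 TPM in NC and rose to 217 ± 2.55 TPM in C498 (log2 change 2.55, limma adjusted p = 0.00447). It also rose in LPS vs NC, by 1.51 (adjusted p = 0.0155), and its change of 0.58 in C498+LPS vs LPS did not pass (adjusted p = 0.298). With C498+LPS against LPS 4 rose and 3 fell (41.2% against 16.8%), and Itgb3, an integrin chain that pairs with alpha v, rose by 0.89 at a low level (adjusted p = 0.0443).

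Downstream of the receptors, 19 of 20 engulfment signalling genes were tested. With LPS alone 1 rose and 5 fell (31.6% against 29.6% of all genes), and with LPS after C498 none rose and 4 fell (21.1% against 16.2%). In LPS vs NC Elmo2, part of the complex that activates Rac, fell by 1.16 (limma adjusted p = 0.00201). Rubcn, which acts in LC3-associated phagocytosis, fell there by 1.03 (adjusted p = 0.00925). C498 alone lowered 2 and raised none (10.5% against 15.5%). These were Ucp2, a mitochondrial carrier, by 0.69 (adjusted p = 0.00532) and Rhog, a small GTPase, by 0.59 (adjusted p = 0.00588). With C498+LPS against LPS 3 fell and none rose (15.8% against 16.8%), among them the small GTPase Rac2 by 0.84 (limma adjusted p = 0.0263) and the kinase Syk by 0.81 (adjusted p = 0.0397).

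A list of 10 brakes on uptake and genes of receptor shedding had 8 tested members, of which 25% passed in LPS vs NC (29.6% of all genes), 25% in C498 vs NC (15.5%) and 37.5% in C498+LPS vs LPS (16.8%). In LPS vs NC Rhbdf2, which escorts the sheddase Adam17 to the surface, rose by 1.2 (limma adjusted p = 0.000394), and Cd47, the signal against uptake, by 0.37 (adjusted p = 0.0263). With C498 alone Timp3, an inhibitor of Adam17 that fibroblasts also make, rose to 25.3 ± 0.438 TPM against 6.38 ± 2.68 TPM (log2 change 1.88, limma adjusted p = 0.00532), and Rhbdf2 by 0.62 (adjusted p = 0.0133). Timp3 also rose in C498+LPS vs LPS, by 1.86 (limma adjusted p = 0.00442), while Sirpa, the receptor of Cd47, fell by 0.86 (adjusted p = 0.0152). The rises of Thbs1 and Timp3 in C498 vs NC stand beside the 4.01 times higher fibroblast marker sum, and the part of these cells was not tested.

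All 14 transcription factors known to act on uptake genes were tested. In LPS vs NC 2 rose and 5 fell (50% passed, against 29.6% of all genes). Pparg, the lipid-sensing nuclear receptor, fell by 1.94 (limma adjusted p = 0.000165). In C498+LPS vs LPS 3 rose and 4 fell (50% against 16.8%), with Irf8, a factor of myeloid development, higher by 1.43 (limma adjusted p = 0.00122). C498 alone raised none and lowered 3 (21.4% against 15.5%). Besides Spi1 this was so for Nr1h3, the sterol receptor LXR alpha, which is known to induce Mertk. Nr1h3 was at 61.5 ± 2.75 TPM in NC, 35 ± 2.38 TPM in LPS, 33.9 ± 1.98 TPM in C498 and 20.3 ± 0.721 TPM in C498+LPS. As with Stab1, its NC samples were above all others and its C498+LPS samples below, while the LPS and C498 samples overlapped. The likeness was not tested. Its changes were -0.84 in C498 vs NC (limma adjusted p = 0.00423) and -0.76 in C498+LPS vs LPS (adjusted p = 0.0049). With LPS it fell by 0.8 in LPS vs NC (adjusted p = 0.00224) and by 0.71 in C498+LPS vs C498 (adjusted p = 0.00722).

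The tested genes with the most similar course were sought for each of the 7 genes that passed in a comparison, by the root mean square distance of centred log2(TPM + 1) over the 8 samples. The distance was not scaled to the spread of each gene. Genes that vary little thus have small distances, and sizes are not comparable between members. Mfge8 was nearest to the cathepsin Ctsk (0.053), followed by Ecm1 (0.0551) and Retreg3 (0.0598). Ctsk had means of 520.1 TPM in NC, 418 TPM in LPS, 551 TPM in C498 and 414 TPM in C498+LPS. Trem2 was nearest to Dtnbp1 (0.0533), Syngr1 (0.0547) and Eif2d (0.0554). Msr1 was nearest to Sp100 (0.0765), Maf (0.0875) and Slc25a43 (0.0887), and Maf, itself a macrophage transcription factor, was at 23.7 TPM in NC, 27.1 TPM in LPS, 14.4 TPM in C498 and 15.5 TPM in C498+LPS. For Marco these genes were Klra2 (0.114) and Mocs1 (0.135), and for Axl Mtf2 (0.129), Nod1 (0.131) and Wdr43 (0.167). Nod1, a sensor of bacterial peptidoglycan, was at 15.4 TPM in NC, 47.5 TPM in LPS, 20.3 TPM in C498 and 32 TPM in C498+LPS. Gas6 was nearest to Spc25 (0.148), P3h3 (0.152) and Sema4b (0.161), and Stab1 to Rab3d (0.147), Ccdc125 (0.185) and Gm32089 (0.19).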

How the data were processed

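RNA of 8 samples (4 groups of 2) was sequenced on an Illumina NovaSeq. The authors used fastp for read filtering, HISAT2 for alignment, StringTie for assembly and RSEM for quantification, and deposited TPM values per gene, with gene length and the mean per group. Tool versions, genome build and annotation are not given in the sources used here. TPM keeps no depth, so counting error is unknown and the authors' DESeq2 test on counts was not repeated.

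The filter was a mean of at least 1 TPM, and the test was limma 3.58.1 (R 4.3.3) on log2(TPM + 1), with group means fitted to all samples together and a variance trend, and p was adjusted by Benjamini-Hochberg within each comparison. An exact two-sided permutation of 2 against 2 samples cannot give a p below 0.333. On simulated data 152 of 200 changed genes among 12189 were recovered, with 9 false calls, for LPS vs NC. The planted changes were larger than all main-fit changes of the 9 genes except that of Axl in LPS vs NC. The recovery of smaller changes was not tested. The members and lists were chosen with earlier results of these data known. Besides the 9 genes, the text names from each list of uptake genes and factors the 2 passing genes with the largest change in LPS vs NC, C498 vs NC and C498+LPS vs LPS, and the 3 genes of nearest course for each member that passed. Some genes that this rule names are not reported here. Tyro3, Tyrobp, Gata6, Msln, Lyz2, Ly6c2, Cd14, Csf1r, Adgre1, Cd68, Mrc1, Alox15, Prg4, Pdgfrb, Nt5dc2, S100a8, S100a9, Csf3r and Ly6g were added after values were seen. So were the values of Spi1, Maf, Nr1h3, Scarf2 and Thbs1 outside that rule. Alternatives were a pseudocount of 0.1, no filter, a mean TPM of at least 5, centring, quantile normalization, the replicate number as a factor, a fit of the compared groups alone, a fit without variance trend, the fold change threshold and each sample left out. Summed TPM of 11 marker lists described cell makeup. Figures used matplotlib 3.10.9.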

Additional observations from a re-analysis of the deposited data

How the results depend on the processing

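Depth is unknown, and with 2 samples per group few calls stood up to every setting: Axl in LPS vs NC and Marco in C498+LPS vs LPS did in all 16. Requiring a fold change of at least 2 left 2 genes passing in LPS vs NC, 1 in C498+LPS vs C498 and 1 in C498 vs NC. A fit of only the groups compared left 3 in LPS vs NC (14.6% of all tested genes passed) and 1 in C498 vs NC (3.86%), without a variance trend 1 passed in C498 vs NC (13.7%), and without a filter 0 passed in C498 vs NC (5.29%) and 1 in C498+LPS vs LPS (6.43%), where more genes share the adjustment. With 1 sample left out, 3 to 5 genes passed in LPS vs NC (14.4% to 31.1% of all genes), 0 to 3 in C498+LPS vs C498 (3.81% to 23.6%), 0 to 2 in C498 vs NC (3.24% to 26.8%), 1 to 5 in C498+LPS vs LPS (5.16% to 23.4%) and 0 for the interaction (0.0738% to 0.82%). Direction turned only for changes that did not pass. Centring turned Msr1 (0.09) and Mertk (0.13) in C498+LPS vs C498, and Mfge8 in C498 vs NC (-0.02), in C498+LPS vs LPS (-0.01) and in the interaction (0.01). Quantile normalization turned Mertk in C498+LPS vs C498 (0.12) and Trem2 in C498+LPS vs LPS (0.03). With 1 sample left out, the range crossed 0 in LPS vs NC for Msr1 (-0.01 to 0.55), Mertk (-0.29 to 0.59) and Timd4 (-0.13 to 0.30), in C498+LPS vs C498 for Msr1 (-0.24 to 0) and Mertk (-0.25 to 0.08), in C498 vs NC for Mertk (-0.54 to 0.34), in C498+LPS vs LPS for Mfge8 (-0.02 to 0.16) and Trem2 (-0.09 to 0.02), and in the interaction for Stab1 (-0.41 to 0.31), Mertk (-0.68 to 0.20) and Mfge8 (-0.13 to 0.05). The cause was not tested.

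Samples with the same replicate number were compared across groups: the correlation, across genes, of the difference between replicates ranged from 0.0397 to 0.168 over the 6 pairs of groups, which does not establish a pairing. With the replicate number as a block, 5 genes passed in LPS vs NC (34.3% of all genes), 3 in C498+LPS vs C498 (20.9%), 3 in C498 vs NC (20.4%), 4 in C498+LPS vs LPS (20%) and 0 for the interaction (0.82%). The block added 1 call, Marco in C498 vs NC, and ended none.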
